A study of Mus musculus with 12 samples.

Results

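The genes that control passage through G1 were followed in premalignant pre-B cells with and without Smchd1: the D-type cyclins, their kinases and kinase inhibitors, the retinoblastoma protein and the E cyclins. Their 10 genes, listed on the array as CCND1, CCND2, CCND3, CDK4, CDK6, CDKN1B, CDKN2C, RB1, CCNE1 and CCNE2, are read by 22 of the 45281 probes. Every probe carrying one of these names was taken. The genes were chosen on the null against wildtype values of these same arrays, so those values are given as a description, with no p-value of that comparison for any of the 10 genes. Of the 22 probes, 19 passed the filter on dim probes, at least 1 for each of the 10 genes.

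Both groups, with 6 samples each, were pre-B cells sorted from mice that had not yet developed lymphoma, of the C57BL/6 strain and carrying the Eµ-Myc transgene, which drives the oncogene Myc from the immunoglobulin heavy chain enhancer in B-lineage cells. The null group was in addition homozygous for a gene trap in Smchd1, which encodes a chromatin protein that takes part in X inactivation and gene silencing, whereas the wildtype group had intact Smchd1. The labels give no age and do not say whether a sample was 1 mouse or a pool, so errors and p-values reflect only how these samples vary, which may be technical. Total RNA of each sample was read on 1 Illumina array, and values are log2 of the background-corrected, quantile-normalized bead intensity. A brighter probe does not mean a more abundant transcript, so levels are compared between arrays for 1 probe and not between probes. In such bulk samples fewer cells that carry a transcript and less of it per cell cannot be told apart.

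In mammals the D-type cyclins are the regulatory subunits through which outside signals reach the cell cycle. They bind and activate the kinases Cdk4 and Cdk6, which phosphorylate the retinoblastoma protein Rb1 and so release E2F factors to switch on genes for DNA replication, among them the E cyclins, partners of Cdk2. Inhibitors of the INK4 family, such as Cdkn2c (p18), bind Cdk4 and Cdk6 themselves, while Cdkn1b (p27) acts mainly on the Cdk2 complexes. In B-cell precursors Ccnd3 and Ccnd2 are the D cyclins usually described, and Ccnd1 is best known in blood from lymphomas in which a translocation places it beside an immunoglobulin enhancer.

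Smchd1 itself followed the labels, with a level of 9.47 ± 0.14 in wildtype and 5.05 ± 0.35 in null arrays (SD, n = 6 each). The arrays detected 15396 to 16587 probes each, with a mean raw intensity 3.08 to 4.43 times that of the negative controls, and their number limits the precision. Of 13 pre-B markers on the array, 10 were detected on all 6 wildtype arrays. Markers of other cells were present as well, and several null arrays stood apart in them. The mean of the myeloid markers stood 3.40 log2 units above the wildtype mean in null 3, against -0.50 to 0.46 in the wildtype arrays. The mean of the plasmacytoid dendritic markers was 2.02 above in null 5 and 1.24 in null 6, against -0.47 to 0.54 in wildtype. Of these markers Spib went the other way, at -0.52 (limma adjusted p = 0.095), with all 6 null arrays below the wildtype arrays. The other tested ones lay above 0, while Ccr9 was detected on no array and Runx2 on 1. The interferon genes were 1.48, 3.19 and 2.42 above the wildtype mean in null 3, 5 and 6. In null 1 (0.00) and null 2 (-0.09) they lay within the wildtype range of -0.22 to 0.46. The pre-B marker mean was below the wildtype range of -0.21 to 0.08 in 5 of the 6 null arrays, all but null 4 (0.49). For the brightest probe of each of the 10 genes, changes without null 3 and 5, or without null 3 to 6, are given where they moved by over 1.5 times. The latter set was chosen after seeing the data. For genes outside the 10, apart from Cdkn1c, these changes are not given, so how far they rest on those arrays is not shown.

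Ccnd1, which encodes cyclin D1, was the D cyclin with a higher level in the null samples, and it was so on each of its 3 probes. On its brightest probe (7200044) wildtype arrays ran from 9.76 over a median of 9.81 to 10.19, and null arrays from 10.69 over 11.03 to 11.40. Every null array lay above every wildtype array. The means were 9.87 ± 0.16 and 11.05 ± 0.27 (SD, n = 6 each), a change of 1.18 (SE 0.12) or 2.26-fold.

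The other Ccnd1 probes gave changes of the same size. Probe 5690441 went from 9.18, 9.50 and 9.84 (lowest, median and highest wildtype array) to 10.52, 10.63 and 11.24 in the null arrays, a change of 1.27 (SE 0.15). Probe 20364 went from 6.97, 7.44 and 7.99 to 8.19, 8.70 and 9.14, a change of 1.30 (SE 0.19). All 3 probes were detected on all 12 arrays and on none of them did the groups overlap. The raw intensities before any correction had the same order for the brightest probe, with 719.7 to 1291.7 in wildtype and 1660.1 to 2879 in null arrays. Each value averaged 21 to 53 beads, whose standard error was at most 0.09 log2 units for these probes, less than the SD of 0.16 between wildtype arrays on the brightest probe. The files used here give no probe sequences, so whether the probes read the same part of the transcript was not tested.

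Among the null arrays Ccnd1 was highest in null 5 (11.40) and null 4 (11.32) and lowest in null 3 (10.69). Null 1 (11.04) and null 2 (10.86), whose myeloid, plasmacytoid dendritic and interferon means lay within the wildtype range, were also above the highest wildtype array. Their pre-B marker means of -0.42 and -0.39 lay below the wildtype range. With null 3 to 6 left out, the brightest probe was 1.08 (SE 0.13) higher. Wildtype 5 had the highest level of its group on all 3 probes.

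By limma at adjusted p under 0.05 over all 17607 tested probes, 3 of the 19 probes of these genes were called, all 3 from Ccnd1 and all higher in null samples. Across the array 1.22% of tested probes were called, 0.534% as higher and 0.687% as lower (94 and 121 probes). When arrays were scaled to a common median and not quantile normalized, the array split into 59 higher and 33 lower, and the same 3 Ccnd1 probes were called. Without null 3 to 6 only 2 of the 3 were called, probe 20364 not being among them. Since the genes were picked on this contrast, nothing is read from the count.

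Ccnd2, the cyclin D2 gene and a target of growth factor and Myc signalling, varied among null arrays more than between genotypes. Its brightest probe (1580088) ran from 6.55 over 7.04 to 7.45 in wildtype and from 6.38 over 7.39 to 8.03 in null arrays. The null group held both the lowest array (null 4) and the highest (null 6), with 4 of 6 null arrays above the wildtype mean. The change was 0.24 (SE 0.24), with a 95% interval from -0.28 to 0.76. It was 0.08 without null 6, 0.41 without null 4 and 0.41 without null 3 to 6. The second probe, 1260324, had the same extremes of null 4 at 5.72 and null 6 at 7.34 and a change of 0.09 (SE 0.25). The remaining 2 Ccnd2 probes were detected on no array.

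Ccnd3 encodes cyclin D3, the D cyclin that pre-B cells need to expand. Its brightest probe (610717) ran from 12.02 over 12.15 to 12.35 in wildtype and from 11.11 over 11.997 to 12.40 in null arrays. The groups overlapped: 4 null arrays lay below every wildtype array and null 4 above all of them. The change was -0.26 (SE 0.17), and it was -0.10 without null 5, the array with the lowest level, -0.06 without null 3 and 5 and -0.16 without null 3 to 6. That array also had the lowest pre-B marker mean (-1.24 relative to wildtype) and the highest T and NK marker mean (1.47). The part of these cells in the Ccnd3 value was not tested. Probe 5900433 behaved alike, at 9.23 ± 0.13 and 9.01 ± 0.52 with its lowest value in null 5 (8.22) and its highest in null 4 (9.77). Probe 2320050, near the detection limit with 3 arrays of each group detected, changed by -0.13 (SE 0.13).

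**Figure D1:**
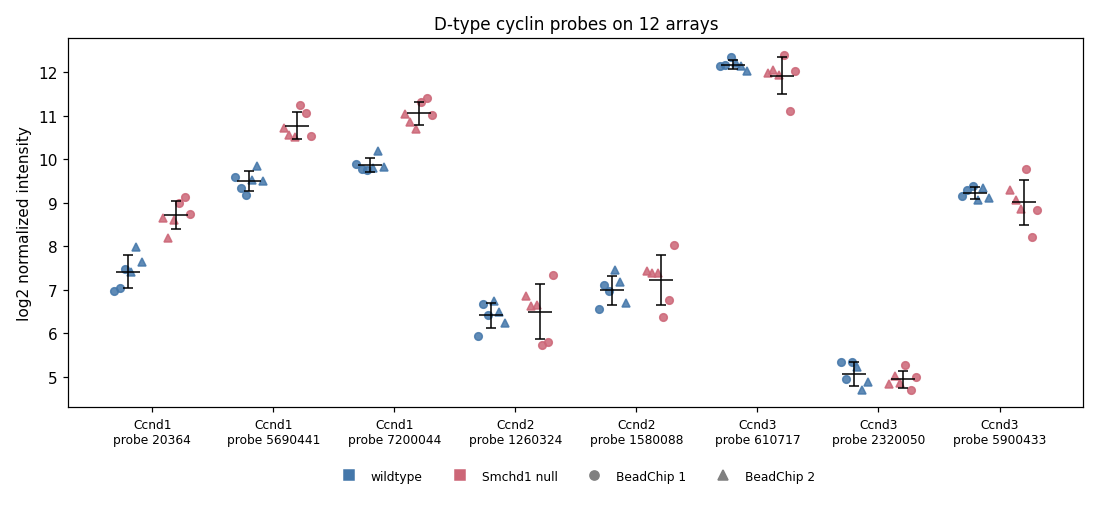
Log2 normalized intensity (vertical axis) of the 8 tested probes of Ccnd1, Ccnd2 and Ccnd3 on the 12 arrays, with 1 point per array, shape for the BeadChip, and a black line and bar for mean and SD of each genotype. Null points lie above all wildtype points for each Ccnd1 probe, while the Ccnd2 and Ccnd3 groups overlap.

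The D cyclins were then set against each other within each array, which removes whatever scales all probes of an array alike. For each pair the difference between the brightest probes was taken on every array and expressed relative to its wildtype mean. Ccnd1 minus Ccnd3 stood higher by 1.05 (null 3) to 2.58 (null 5) in the null arrays, above every wildtype array, whose highest value was 0.35. Its mean difference between genotypes was 1.44 (SE 0.25). Part of the value in null 5 came from low Ccnd3, and without null 5 the mean difference was 1.21.

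Ccnd1 minus Ccnd2 was higher by 0.94 (SE 0.35), with values from 0.11 (null 6) to 2.05 (null 4) against -0.53 to 0.45 in wildtype, so the groups overlapped. Among the null arrays, null 4 and null 5 were those highest in Ccnd1 and lowest in Ccnd2. Ccnd2 minus Ccnd3 was 0.50 (SE 0.31) higher, and it ranged from -0.83 in null 4 to 1.19 in null 6 against -0.41 to 0.42 in wildtype. Over 23 other ways of processing or subsetting the arrays, the differences ran from 1.06 to 1.81 for Ccnd1 against Ccnd3, from 0.63 to 1.25 for Ccnd1 against Ccnd2 and from 0.30 to 0.76 for Ccnd2 against Ccnd3. Of the 3 pairs, only Ccnd1 against Ccnd3 had genotype groups that did not overlap.

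The kinases that D cyclins activate had overlapping groups on every probe. Cdk4, the main partner of D cyclins in most tissues, had the narrowest spread among the brightest probes of the 10 genes. Its brightest probe (6860463) ran from 11.72 over 11.84 to 11.88 in wildtype and from 11.75 over 11.86 to 12.05 in null arrays. The change was 0.06 (SE 0.07), with a 95% interval from -0.10 to 0.21. It was 0.02 without null 4, 0.01 without null 3 to 6, -0.04 with median scaling and -0.0011 on BeadChip 2 alone. The second Cdk4 probe, 4560296, changed by -0.09 (SE 0.11). Cdk6, the kinase more typical of blood cells, was read by 1 probe near the detection limit, detected on 6 wildtype and 5 null arrays. It ran from 5.17 over 5.44 to 5.69 in wildtype and from 4.86 over 5.10 to 5.57 in null arrays, a change of -0.28 (SE 0.12) with overlapping groups. The change was -0.08 with no background correction, -0.13 with a correction that uses no control probes and -0.15 without null 3 to 6.

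Since every sample carries the Myc transgene, the promoters of the 2 kinases are shown with the E-box CACGTG, the palindromic word that Myc and Max bind and that therefore reads the same on both strands, in capitals. The sequences are RefSeq's for assembly GRCm38.p6 and run 5′ to 3′ on the gene's strand, from 250 bases before to 50 after the annotated start. For Cdk4 this is where the gene's span opens. For Cdk6 it is a start inside the gene, whose span runs from 3341004 to 3531008. Of the 10 genes, 6 matched that table. Besides the kinases, a Cdkn2c window at chr4:109665323-109665622 held 1 E-box. The other Cdkn2c window and those of Ccnd3, Cdkn1b and Ccne1 held 0.
Cdk4 promoter, chr10:127063285-127063584, plus strand: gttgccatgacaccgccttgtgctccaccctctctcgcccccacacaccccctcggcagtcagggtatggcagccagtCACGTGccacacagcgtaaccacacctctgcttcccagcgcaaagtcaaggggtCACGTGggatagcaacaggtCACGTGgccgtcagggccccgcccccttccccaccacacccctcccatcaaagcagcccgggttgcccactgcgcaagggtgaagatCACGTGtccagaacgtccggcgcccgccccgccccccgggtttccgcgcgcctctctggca
Cdk6 promoter, chr5:3343643-3343942, plus strand: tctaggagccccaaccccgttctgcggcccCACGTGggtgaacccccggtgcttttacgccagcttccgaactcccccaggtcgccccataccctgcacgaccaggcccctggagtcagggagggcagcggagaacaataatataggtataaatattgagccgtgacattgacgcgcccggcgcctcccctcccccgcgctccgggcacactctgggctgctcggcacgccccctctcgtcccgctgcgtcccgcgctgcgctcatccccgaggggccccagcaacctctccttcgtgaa
The Cdk4 window holds 4 E-boxes, beginning 172, 118, 98 and 11 bases before the start, and the Cdk6 window holds 1, beginning 220 bases before it. Of 32851 such promoters 7.15% held at least 1 E-box and 8 (0.0244%) held 4 or more. Myc itself stood at 8.47 ± 0.20 in wildtype and 8.50 ± 0.28 in null arrays, a change of 0.03 (SE 0.13, limma adjusted p = 0.94). These matches describe the sequence only, and binding was not measured.

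The inhibitors among the 10 genes had fitted changes below 0. Cdkn1b encodes p27, which restrains Cdk2 in resting cells. Its brightest probe (2810243) ran from 5.93 over 6.48 to 6.59 in wildtype and from 5.51 over 6.03 to 6.38 in null arrays. The groups overlapped, with 5 of 6 null arrays below the wildtype mean and the lowest level in null 5, and the change was -0.38 (SE 0.16). It was -0.25 without null 3 and 5, -0.11 without null 3 to 6, -0.16 with no background correction and -0.22 with a correction that uses no control probes. Probe 4880053 was detected on 3 wildtype and 0 null arrays at levels too near the detection limit for a fold, and probe 5820463 was detected on no array.

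Cdkn2c encodes p18, an INK4 inhibitor known for its part in B-lineage and plasma cell arrest. Its brightest probe (7150528) ran from 9.61 over 9.68 to 9.84 in wildtype and from 9.17 over 9.55 to 9.70 in null arrays. All 6 null arrays lay at or below the wildtype mean of 9.70, though the groups overlapped, and the change was -0.19 (SE 0.10). It was -0.35 on BeadChip 1, -0.03 on BeadChip 2, -0.12 without null 4 and -0.11 without null 3 to 6. The dimmer probe, 4070762, changed by -0.17 (SE 0.25), with null 5 the highest of all 12 arrays at 6.94, the opposite of its place on the brighter probe, so the 2 probes disagree in that array.

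Rb1, the pocket protein that D cyclin kinases inactivate, was lower in null samples on both of its probes. The brighter probe (10438) ran from 9.49 over 9.69 to 9.79 in wildtype and from 8.90 over 9.27 to 9.52 in null arrays. Only null 2 reached into the wildtype range, and the change was -0.43 (SE 0.12), or -0.16 without null 3 to 6. On probe 2480048 the wildtype arrays ran from 8.52 over 8.78 to 8.93 and the null arrays from 8.03 over 8.43 to 8.50. Here the groups did not overlap, with a change of -0.42 (SE 0.10) or 1.34-fold lower. It was not among the called probes, but it was with no background correction (-0.33) and with a correction that uses no control probes (-0.37). Those settings called 278 and 264 of all tested probes, against 215 otherwise. Rb1 was picked on this contrast, so nothing is read from these calls. Null 4 and null 5 had the lowest Rb1 levels on both probes. On probe 10438 the change was -0.54 on BeadChip 1 and -0.32 on BeadChip 2.

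Of the 19 tested probes, 4 had groups that did not overlap: the 3 Ccnd1 probes with all null arrays above and Rb1 probe 2480048 with all null arrays below. Across the array this held for 1.38% of tested probes upwards and 1.63% downwards.

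The E cyclins bind Cdk2 at the start of DNA replication. Ccne1 was read by 1 probe (2360762), from 7.95 over 8.24 to 8.44 in wildtype and from 7.36 over 8.29 to 8.50 in null arrays. The change of -0.08 (SE 0.17) rested on null 5, the lowest array, and was 0.08 without it and 0.09 without null 3 and 5. Ccne2 (6020722) ran from 8.44 over 8.88 to 9.16 in wildtype and from 7.88 over 8.56 to 8.91 in null arrays, a change of -0.36 (SE 0.17). It was -0.14 without null 3 and 5 and -0.03 without null 3 to 6. Its lowest levels were in null 5 and null 3, the arrays with the highest plasmacytoid dendritic and the highest myeloid marker mean. The part of those cells in the Ccne2 value was not tested.

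**Figure D2:**
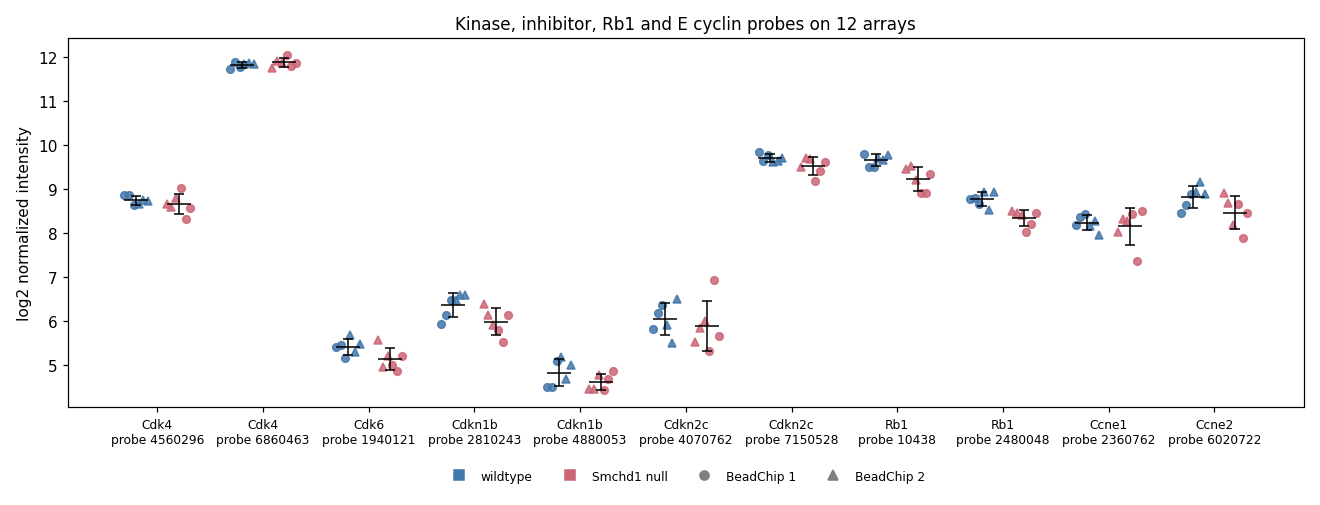
Log2 normalized intensity (vertical axis) of the 11 tested probes of Cdk4, Cdk6, Cdkn1b, Cdkn2c, Rb1, Ccne1 and Ccne2 on the 12 arrays, with 1 point per array, shape for the BeadChip, and a black line and bar for mean and SD. Null points lie below all wildtype points only for Rb1 probe 2480048.

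Over the 19 tested probes, 13 had a fitted change below 0 and the median was -0.17, or -0.20 over the 16 probes that remain without Ccnd1. Over all tested probes the median was -0.04 and 58.2% lay below 0, and with median scaling that median was -0.09.

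**Figure D3:**
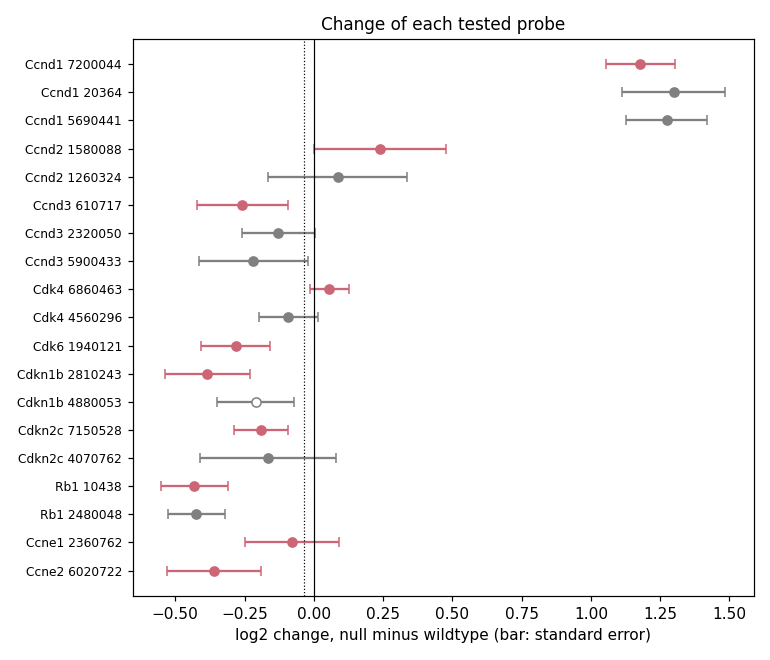
Log2 change, null minus wildtype (horizontal axis), of the 19 tested probes with standard errors, in red for the brightest probe of each gene, an open circle for the Cdkn1b probe detected on no null array, and a dotted line at the median of all tested probes. The 3 Ccnd1 probes lie between 1.18 and 1.30, and no other probe lies above 0.24 or below -0.43.

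Between the BeadChips, each with 3 arrays of either genotype, the Ccnd1 change differed in size. On the brightest probe it was 1.43 on BeadChip 1 and 0.92 on BeadChip 2. Probe 5690441 gave 1.57 and 0.97, and probe 20364 gave 1.79 and 0.81. With 3 arrays a group, 2 of the 3 Ccnd1 probes were called on BeadChip 1 alone and 1 on BeadChip 2 alone. Of all 17607 tested probes 12 and 43 were called there. Ccnd1 was picked on this contrast, so nothing is read from these counts. In a limma interaction of genotype and BeadChip 0 of the 17607 probes passed (0%), and 5.72% had an unadjusted p under 0.05, the 3 Ccnd1 probes among them (adjusted p = 0.85 for each). Null 4, 5 and 6 were on BeadChip 1 and null 1, 2 and 3 on BeadChip 2, so a BeadChip and its samples cannot be told apart.

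Other genes of the same pathway, in lists written by role with earlier results of these data known, were read from the same fit. Of 44 genes 43 were tested and 0 were called at limma's adjusted p under 0.05, with 3 higher and 10 lower at an unadjusted p under 0.05. Their median change was -0.15, and 31 of 43 lay below 0. Over all 17607 tested probes 1.22% were called and 18.1% had an unadjusted p under 0.05, with 10.7% of all probes being lower at that threshold. The median over all of them was -0.04, and 58.2% lay below 0.

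Of the 4 other CDK inhibitors tested, Cdkn1a, Cdkn1c and Cdkn2a had fitted changes above 0 and Cdkn2d below 0, and none passed. Cdkn1a encodes p21, the inhibitor that p53 induces, and ran from 6.62 over 6.86 to 7.46 in wildtype and from 7.49 over 7.87 to 9.46 in null arrays. All 6 null arrays lay above the wildtype arrays, null 4 farthest, and the change was 1.09 (SE 0.29, limma adjusted p = 0.080). Without null 4 it was 0.81 and called (limma adjusted p = 0.041). Cdkn1c, the imprinted gene for p57, was highest in null 1 (9.17) and null 2 (8.72) and lay in the wildtype range of 6.98 to 7.48 only in null 5 (7.25). Its change was 1.05 (SE 0.25, limma adjusted p = 0.058), and without null 5 it was 1.26 and called (limma adjusted p = 0.0042). Without null 3 to 6 the Cdkn1c change was 1.70. The Cdkn2a locus, which gives the INK4 inhibitor p16 and the p53 activator Arf, changed by 0.73 (SE 0.30, limma adjusted p = 0.22), with its highest level in null 4 (9.42), while the other null arrays ran from 7.19 to 7.99. Null 4 was also the highest null array for Cdkn1a. Cdkn2d (p19) changed by -0.21 (SE 0.14, limma adjusted p = 0.44), and Cdkn2b was detected on no array.

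Of the 12 pocket proteins and E2F factors, 8 lay below 0. Tfdp2, a dimerization partner of E2F, changed by -0.59 (SE 0.18, limma adjusted p = 0.13) with 5 null arrays below all wildtype arrays. The repressive E2f7 (-0.54, limma adjusted p = 0.17) and E2f8 (-0.43, limma adjusted p = 0.16) and the Rb1 relative Rbl1 (-0.26, limma adjusted p = 0.25) did not pass either. Among 6 kinases and activators the lowest p was that of Ccnh, the cyclin of the CDK-activating kinase (-0.31, SE 0.13, limma adjusted p = 0.23). Of 6 genes of cyclin and inhibitor turnover the lowest p was that of Fbxo4, an F-box protein described for cyclin D1 (0.39, SE 0.22, limma adjusted p = 0.36), which was highest in null 5.

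The 15 tested S phase genes that E2F factors control all lay below 0, with a median of -0.21. Cdc6, a licensing factor of replication origins, was lower in all 6 null arrays than in any wildtype array, at -0.34 (SE 0.11, limma adjusted p = 0.13), and Cdt1, its partner in licensing, changed by -0.21 (limma adjusted p = 0.24). Chek1, the replication checkpoint kinase, did not pass either (-0.52, limma adjusted p = 0.25). Relative to the wildtype mean their list mean was -0.64 in null 5 and -0.24 to -0.09 in the other null arrays, against a wildtype range of -0.05 to 0.05. The 12 tested mitotic genes also all lay below 0 with a median of -0.25, led by the spindle protein Nusap1 (-0.48, SE 0.12, limma adjusted p = 0.067). The mitotic mean was -0.08, -0.01, -0.21, -0.29, -0.73 and -0.22 in null 1 to 6, against -0.08 to 0.05 in wildtype. Its lowest values were in null 5 and null 4, the 2 arrays highest in Ccnd1.

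**Figure D4:**
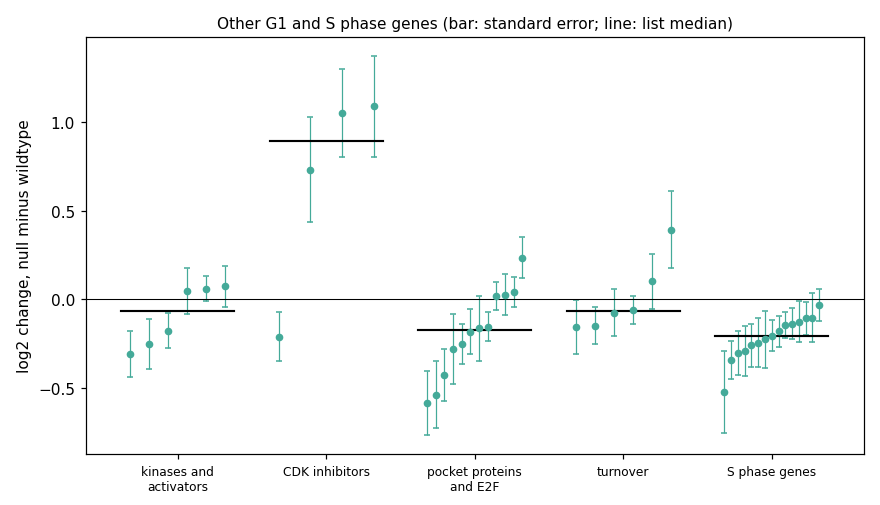
Log2 change, null minus wildtype (vertical axis), of the 43 tested genes of 5 lists of other G1 and S phase genes, with standard errors and a line at each list's median. The 15 S phase genes all lie below 0, and the 3 highest genes are Cdkn1a, Cdkn1c and Cdkn2a at 0.73 to 1.09.

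Upstream regulators of D cyclins in B-cell precursors were read as 10 tested genes, 0 of them called. Il7r, the interleukin-7 receptor whose signal drives Ccnd2 and Ccnd3 in these cells, ran from 7.07 to 7.74 in null 1, 2, 3 and 6, was lowest in null 5 (6.57) and was above the wildtype range of 8.42 to 8.65 in null 4 (8.86). Its change was -0.99 (SE 0.28, limma adjusted p = 0.10). The kinase Jak3 (0.25, limma adjusted p = 0.14) and the transcription factor Stat5a (0.36, limma adjusted p = 0.14), both of the same signal, lay above 0. Ikzf1 (Ikaros), a repressor of pre-B proliferation, changed by -0.32 (SE 0.11, limma adjusted p = 0.17). Stat5b was detected on no array and was not tested.

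**Figure D5:**
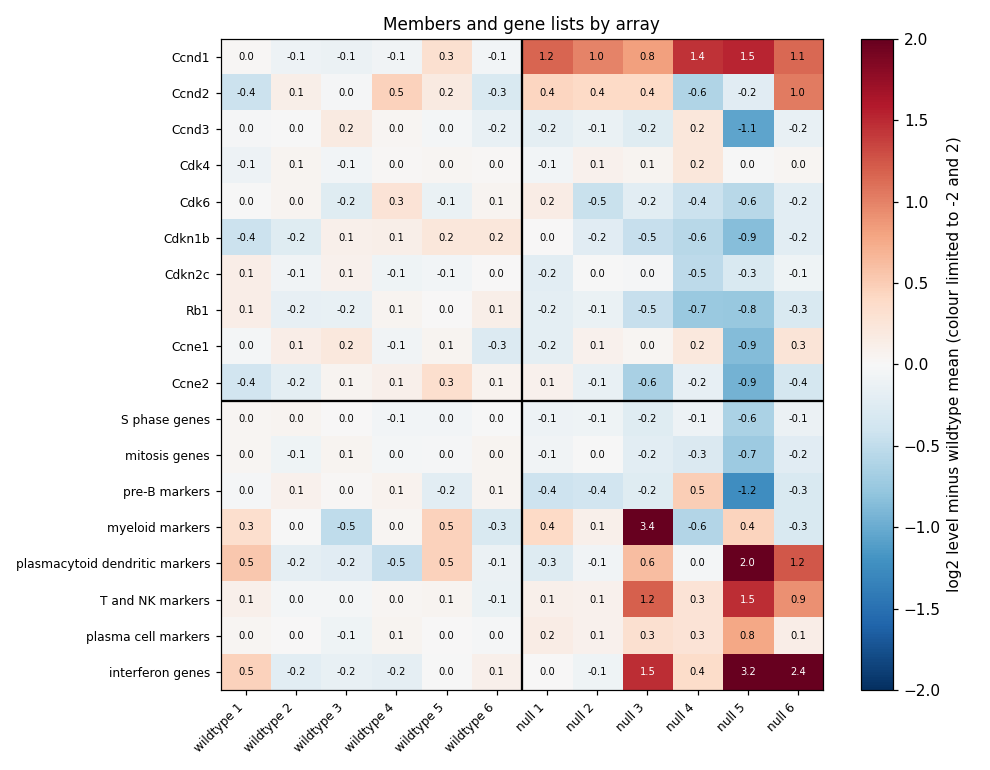
Log2 level minus the wildtype mean of the brightest probe of each of the 10 genes (upper rows) and mean over the tested genes of 8 lists (lower rows) on each array (columns), with the value printed in each cell. Ccnd1 is 0.8 to 1.5 in all 6 null arrays, whereas the interferon mean ranges from -0.1 to 3.2 among them.

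The plasma cell marker mean was above the wildtype range in all 6 null arrays, as Ccnd1 was, and the T and NK marker mean in 4 of the 6. The T and NK mean was 0.10, 0.09, 1.19, 0.27, 1.47 and 0.91 above the wildtype mean in null 1 to 6, against Ccnd1 at 1.16, 0.99, 0.81, 1.44, 1.53 and 1.14. The highest wildtype T and NK mean was 0.11, and 7 of the 14 T and NK markers on the array were detected on all 6 wildtype arrays. Not among these were Cd3d, Cd3e and Cd3g, detected on 3, 0 and 1 wildtype arrays and on 4, 3 and 4 null arrays. Cd247 and Cd8a were detected on no array. Lck changed by -0.13, while the other tested T and NK markers lay above 0. The plasma cell mean reached 0.77 in null 5 and 0.09 to 0.32 in the other null arrays, against a wildtype maximum of 0.06, and 5 of the 8 plasma cell markers were detected on all 6 wildtype arrays. The plasma cell markers Prdm1, Jchain and Tnfrsf17 were detected on no array. Of those tested, Irf4 changed by -0.51 (limma adjusted p = 0.16), while Sdc1, Xbp1, Fkbp11 and Mzb1 lay above 0. Of the stromal and endothelial markers, Col1a1, Col1a2, Col3a1 and Pdgfrb were detected on no array, while the mean of the 4 tested genes was up to 0.58 above wildtype. The part of plasma, T, NK and endothelial cells in the Ccnd1 value was not tested.

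Genes that neighbour Ccnd1 on its chromosome had smaller changes. In RefSeq's gene order the tested neighbours Dhcr7, Cttn, Ppfia1, Fadd, LTO1 and Tpcn2, looked up after the Ccnd1 value was known, had changes from -0.21 to 0.19 with limma adjusted p of 0.31 to 0.76, and 0 were called.

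Likeness to the D cyclins was measured as the Pearson correlation over the 12 arrays of levels centred on their genotype means, for 1 probe of each of 9505 genes, as a description. The 5 genes most like Ccnd1 were Cpped1 (0.93), Pmvk (0.90), Glis3 (0.86), Cd180 (0.85) and Emc3 (0.85). Among those most like Ccnd2 were Ccdc97 (0.93), Tubb5 (0.87), E2f6 (0.87) and Ttll1 (0.87). Those most like Ccnd3 were Adrm1, Pde2a and Mcm2 (0.97 each), Ppp1ca and Ube2s (0.96 each). The 3 cyclins had no gene in common among these. With the 2 arrays farthest from the median left out (null 5 and null 4), the Ccnd3 values fell to between 0.58 and 0.71, so they rest largely on those arrays. With null 4 and null 6 left out the Ccnd2 values were 0.77 to 0.89, and with null 5 and wildtype 5 left out the Ccnd1 values were 0.68 to 0.88.

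Among the 10 genes themselves the closest pair was Ccnd3 with Ccne1, at r = 0.90 and Spearman's rho of 0.77, which was r = 0.70 without null 5 and null 4. Cdkn1b and Ccne2 gave r = 0.85 and rho of 0.79, and r = 0.67 without null 5 and wildtype 1. Ccnd1 and Cdkn2c went in opposite directions, at r = -0.70 and rho of -0.59, and at r = -0.77 without null 5 and wildtype 5. All 45 pairs were computed on the same 12 arrays, and these are descriptions of them.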

How the data were processed

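The deposited tables hold, per the file headers, mean bead intensity per probe (GenomeStudio 1.8.0), a detection score as a fraction (1 minus the detection p-value) and bead counts. Detection p-values were taken as 1 minus the detection score, and the authors' processed table holds log2 values. BeadStudio, R 2.15.1 and limma 3.12.1 were used per the submitters' processing notes. For the probes, the genome build was not given in the sources used here.

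Intensities were corrected with 936 negative controls, quantile normalized and log2-transformed after adding 16 (neqc, limma 3.58.1, R 4.3.3), within 5e-09 of the deposited log2 values. Probes with detection p under 0.05 on at least 3 of 12 arrays were tested (17607 of 45281) with lmFit and eBayes, null against wildtype, Benjamini-Hochberg adjusted over all of them. The brightest tested probe by mean stood for a gene. Pairs of D cyclins were compared within arrays, with no test. The genes and lists were chosen with earlier results of these data known. Named were all probes of the 10 genes, Smchd1, of each other list called genes and up to 4 of smallest p, and the 5 genes most like each D cyclin. A pair of genes under this rule is not reported here. Some marker genes, Myc and the neighbours of Ccnd1 were named after their values were seen. The fit was tested on simulated data. Alternatives were other corrections, scaling, filters, blocks, array weights, single BeadChips and arrays left out.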

Additional observations from a re-analysis of the deposited data

Results flagged for a closer look

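In 38 groups of 6 arrays (19 probes, 2 genotypes) an array was looked for whose gap to its nearest neighbour exceeded, as a share of the group's range, the critical value of Dixon's test, which chance alone gives in about 1 of 20 groups. Ccnd1 probe 7200044 stood at 10.19 in wildtype 5, with the next wildtype array at 9.89 and a gap of 0.692 of the range. Without wildtype 5 the Ccnd1 change was 1.24. Ccnd3 probe 610717 stood at 11.11 in null 5, with the next null array at 11.93 and a gap of 0.635 of the range. Without null 5 the Ccnd3 change was -0.10.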

How the results depend on the processing

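When any 1 array was left out 3 probes of the 10 genes were called, all of Ccnd1, and the replicate number as a block also gave 3. Only 1 was called on BeadChip 2 alone, with 3 arrays a group, where the brightest Ccnd1 probe was at 0.92. Since the 10 genes were picked on this contrast, nothing is read from these counts either. Over 25 alternatives the Ccnd1 change ran from 0.92 to 1.43. Of the other G1 and S phase genes 1 was called, Cdkn1c each time, with BeadChip as a block, on BeadChip 2 alone, without null 3 and 5 and without null 3 to 6 (the last chosen after seeing the data). With array weights 3 were (Tfdp2, Cdkn1a and Cdkn1c), and leaving out 1 array gave 0 to 1. The cause was not tested. The sign turned for Ccne1 on BeadChip 2 alone (0.0728), with array weights (0.0258), without null 3 and 5 (0.0891) and without null 5 (0.0786; lowest with 1 array left out -0.149), and for Cdk4 with median scaling (-0.0438) and on BeadChip 2 alone (-0.0011). The other 8 genes kept their sign. The count over all tested probes (215) was 92 with median scaling, 101 with no filter, 12 and 43 on single BeadChips, 104 with the replicate block, 380 with array weights and 68 to 319 with 1 array left out. Same-numbered samples did not deviate together (correlations from -0.294 to 0.0849). They were always on different BeadChips, so these correlations cannot settle whether the numbers pair the samples. Filters and array weights give no value for the D cyclin differences, which kept their sign elsewhere. Signal near background limits Cdk6, 1 Ccnd3 probe and the dimmer Cdkn1b probes.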
